A study of Mus musculus with 16 samples.

Results

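The genes described here encode the aminoacyl-tRNA synthetases, the enzymes that join each amino acid to its transfer RNA. They were chosen by gene symbol: 34 of the 19938 genes with a value of their own on the array carry a symbol of 1 amino acid letter followed by ars, ars1 or ars2, or are Eprs, Farsa or Farsb. Of these, 16 serve the cytosol, 16 serve the mitochondrion, and Gars and Kars encode enzymes of both. Aars, which shares its transcript cluster with another gene, and Dars were not analysed here. Of the 34 members 28 were brighter than the median gene and 0 were in the dimmest 25%, and their means over all arrays ran from 6.19 for Pars2 to 11.14 for Nars on the log2 scale.

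Synthetases feed protein synthesis: the cytosolic enzymes charge tRNAs for cytosolic ribosomes, and separate nuclear genes encode the enzymes that charge the tRNAs of the mitochondrion. In mammals several cytosolic synthetases bind the scaffold proteins Aimp1, Aimp2 and Eef1e1 in the multisynthetase complex. Many cytosolic synthetase genes are known targets of ATF4, the transcription factor of the integrated stress response, and Wars is known as an interferon-induced gene. Photoreceptors of the retina renew their light-sensitive membranes throughout life, and the pigment epithelium digests what they shed.

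Expression was measured in the retinal pigment epithelium (RPE) and the neurosensory retina (NSR) of 8 male mice of the albino strain Balb/cJ at 10 weeks of age, with 1 array per tissue and mouse. The light-exposed groups were RPE and NSR of 4 mice that had 18 hours of cool white fluorescent light at 10000 lux and were killed 4 hours after it ended. The control groups were RPE and NSR of 4 mice on a 12-hour light-dark cycle. Bright light and the change of light schedule cannot be told apart, and precision is limited by the 4 arrays per group.

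The labelled tissues carried their markers. The median of 10 RPE markers was 11.58 to 12.39 in the 8 RPE arrays and 5.89 to 6.76 in the 8 NSR arrays, and that of 8 rod markers was 7.32 to 8.60 in the RPE arrays and 11.52 to 12.22 in the NSR arrays. Both are dissected tissues, so that fewer cells of a type and less RNA per cell cannot be told apart. Other cells' markers set 3 of the RPE arrays apart. RPE control 2 had a lens marker median of 7.81, against 6.52, 6.58 and 6.6 in the rest of that group. RPE light 2 had a corneal and ciliary marker median of 9.46, against 6.12, 6.16 and 6.42 in its group. RPE light 1 had a rod marker median of 8.60, against 7.32, 7.57 and 7.61 in that group. The rod medians of control RPE were 8.38, 8.32, 7.82 and 7.83, and RPE control 1, with the 8.38, was not set apart. Synthetase calls for light in the RPE are therefore given with and without the 3 arrays RPE control 2, RPE light 1 and RPE light 2. So are those for the difference between the tissues' responses. Counts for RPE against NSR and for the gene lists use all arrays, and the list counts were not redone without the 3.

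The comparison of light-exposed with control RPE asked how synthetase mRNA of the dissected tissue differed after bright light. In light-exposed RPE 18 of 34 members rose and 0 fell, and the 18 were mostly cytosolic. Of the 16 cytosolic members 11 rose, Gars and Kars both rose, and of the 16 mitochondrial members 5 rose. Among all genes tested 9.08% rose and 8.53% fell. At an unadjusted p under 0.05 in limma 1 member, Sars2, was lower. The share of all genes was not counted at that threshold. A gene was called in limma where its p, adjusted by Benjamini and Hochberg's method across the 19938 genes, was under 0.05, with 4 mice per group. The median log2 change was 0.35 for cytosolic members and 0.15 for mitochondrial members, beside -0.01 for all genes. The classes differed in signal too: the median of member means in control RPE was 9.13 for cytosolic and 6.91 for mitochondrial members. The part of signal level in the difference between the classes was not tested. RPE markers were lower in the same arrays: 6 of 10 fell and 0 rose, with array medians of 11.58 to 11.98 in light-exposed and 12.31 to 12.39 in control RPE. Of 7 cone markers 3 fell, with medians of 5.87 to 6.62 in light-exposed and 7.09 to 7.42 in control RPE. Of 8 rod markers and of 6 corneal and ciliary markers 0 were called. Of 6 Muller glia markers Vim and Dkk3 rose, and of 6 endothelial markers Kdr rose. Of 8 microglia and macrophage markers Itgam rose and Csf1r fell. Of 8 fibroblast and pericyte markers Pdgfra rose and Pdgfrb fell, and of 8 lens markers Lim2 fell. Their part in the synthetase values was not tested.

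**Figure D1:**
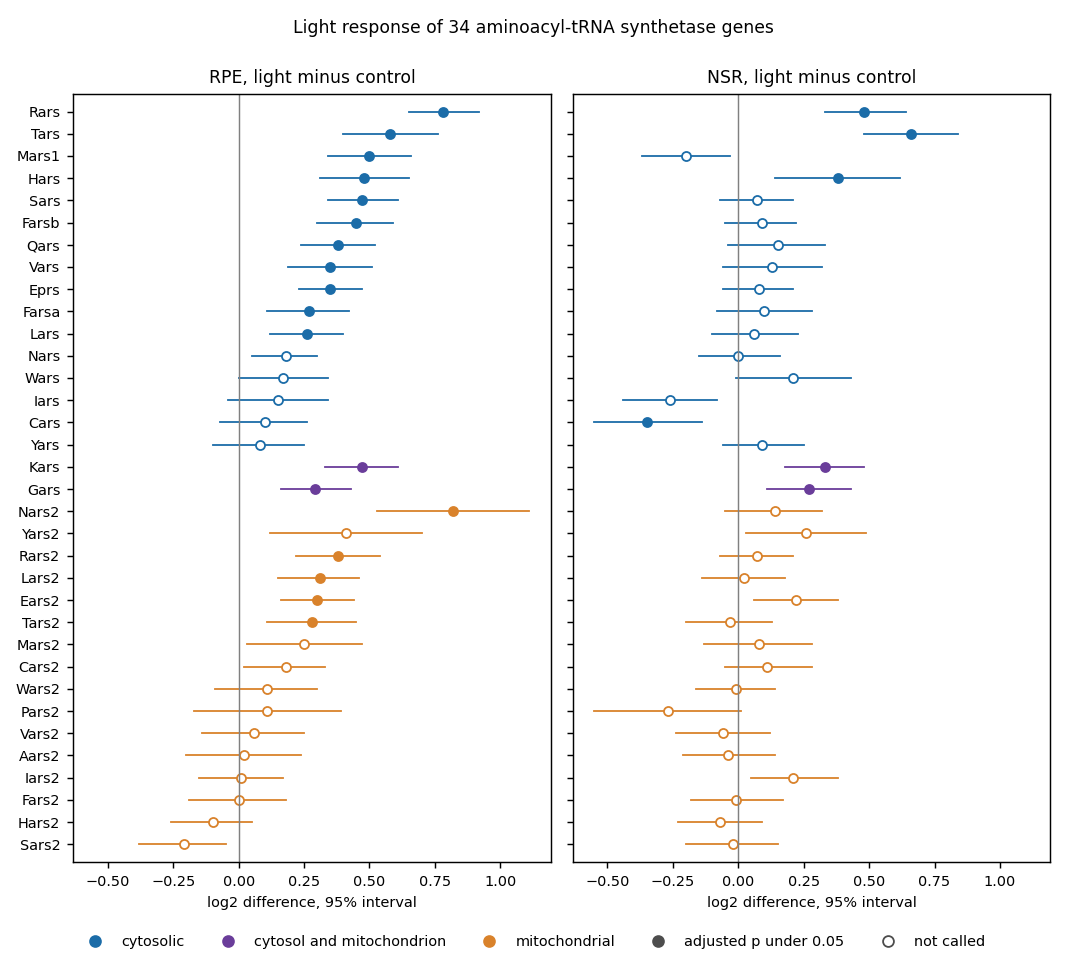
The log2 difference between light-exposed and control arrays of each of the 34 genes, with its 95% interval, in the RPE (left) and the NSR (right); filled points passed an adjusted p under 0.05 in limma with 4 mice per group. In the RPE 18 filled points lie above 0 and none below, and in the NSR 5 lie above 0 and Cars below.

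Rars, the arginyl-tRNA synthetase and a member of the multisynthetase complex, had the largest cytosolic rise in the RPE. It stood at 11.43, 11.38, 11.56 and 11.42 in light-exposed RPE, against 10.70, 10.63, 10.64 and 10.68 in control RPE. All 4 light-exposed arrays lay above all 4 control arrays. The rise was 1.72-fold (log2 0.78, SE 0.06, limma adjusted p = 3.88e-05). It was as large without the 3 arrays that stood apart, at 0.82 on the log2 scale.

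Tars, the threonyl-tRNA synthetase, stood at 8.96, 8.92, 9.05 and 8.89 in light-exposed RPE, against 8.43, 8.56, 8.27 and 8.24 in control RPE, a 1.49-fold rise (log2 0.58, SE 0.08, adjusted p = 0.000979 in limma). Mars1, the methionyl-tRNA synthetase, which also charges the initiator tRNA, stood at 7.96, 7.99, 8.16 and 8.03 in light-exposed RPE, against 7.60, 7.39, 7.57 and 7.56 in control RPE. It rose 1.42-fold (log2 0.50, SE 0.07, adjusted p = 0.00103 in limma). Hars, the histidyl-tRNA synthetase, had 9.89, 9.95, 10.09 and 9.80 in light-exposed RPE, against 9.55, 9.36, 9.44 and 9.46 in control RPE, and rose 1.40-fold (log2 0.48, SE 0.08, adjusted p = 0.00174 in limma). In none of these 3 genes did the groups overlap.

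Both subunits of the cytosolic phenylalanyl-tRNA synthetase rose, Farsb 1.36-fold and Farsa 1.20-fold. Sars rose 1.39-fold, Qars 1.30-fold, Vars and Eprs, the enzyme that charges both glutamate and proline tRNAs, 1.27-fold each, and Lars 1.20-fold. Kars, the lysyl enzyme of both compartments, had 9.16, 9.32, 9.34 and 9.19 in light-exposed RPE, against 8.83, 8.76, 8.79 and 8.77 in control RPE, and rose 1.38-fold (log2 0.47, SE 0.06, adjusted p = 0.000722 in limma). Gars, the glycyl enzyme of both compartments, rose 1.22-fold. The 5 cytosolic members that were not called, Nars, Wars, Iars, Cars and Yars, had log2 differences of 0.18, 0.17, 0.15, 0.10 and 0.08. All 16 cytosolic differences were above 0. In 12 of the 16 cytosolic members, in both shared ones and in 5 mitochondrial ones the light-exposed RPE arrays all lay above the control arrays, as they did in 11.3% of all genes. All arrays lay below in 0 members and in 10.9% of all genes.

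**Figure D2:**
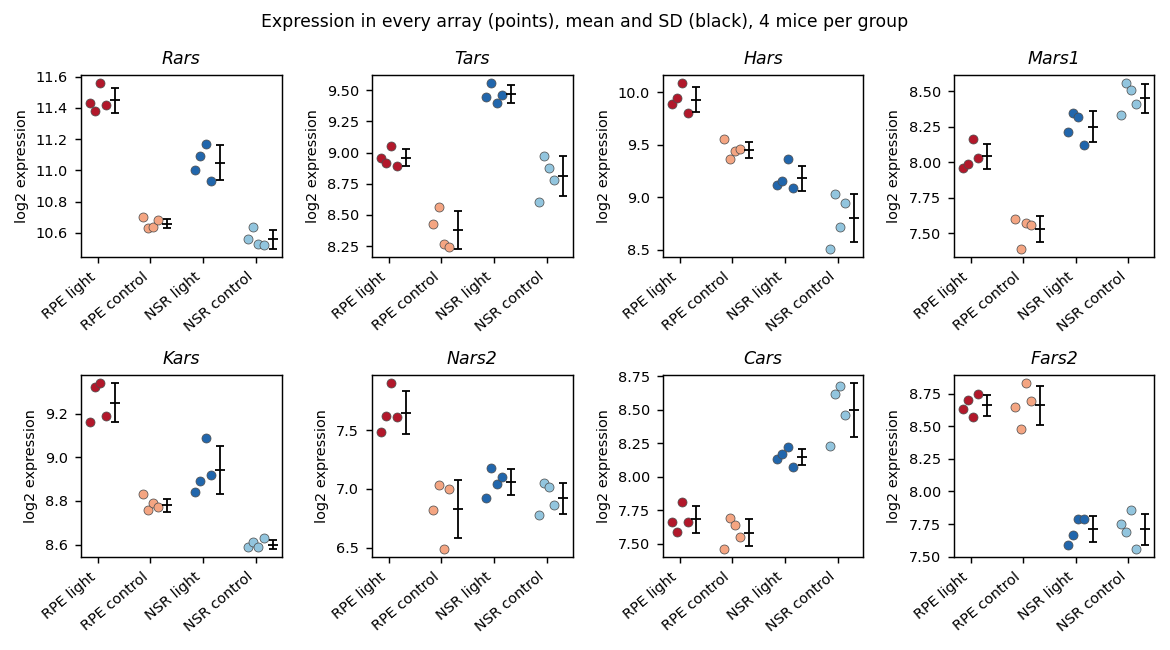
Log2 expression of 8 members in every array of the 4 groups, with the mean and SD beside the points (n = 4 mice per group; each vertical axis has its own range). The light-exposed RPE points of Rars, Tars, Hars, Mars1, Kars and Nars2 lie above the control RPE points without overlap, and those of Cars and Fars2 overlap theirs.

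Among mitochondrial members of the RPE Nars2, the asparaginyl enzyme, had the largest rise. It stood at 7.48, 7.62, 7.90 and 7.61 in light-exposed RPE, against 6.82, 7.03, 6.49 and 7.0 in control RPE, and rose 1.77-fold (log2 0.82, SE 0.13, adjusted p = 0.00166 in limma). The groups did not overlap, and the SD was 0.18 in light-exposed and 0.25 in control RPE.

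Rars2, the mitochondrial arginyl enzyme, had 9.68, 9.78, 9.72 and 9.58 in light-exposed RPE, against 9.36, 9.36, 9.34 and 9.16 in control RPE, and rose 1.30-fold (log2 0.38, SE 0.07, adjusted p = 0.00443 in limma). Lars2, the mitochondrial leucyl enzyme, had 6.95, 6.92, 6.88 and 6.98 in light-exposed RPE, against 6.74, 6.55, 6.70 and 6.52 in control RPE, and rose 1.24-fold. Ears2, the mitochondrial glutamyl enzyme, had 6.93, 6.87, 6.80 and 6.75 in light-exposed RPE, against 6.55, 6.59, 6.47 and 6.53 in control RPE, and rose 1.23-fold. In each of these the groups did not overlap. Tars2 rose 1.21-fold, and the other 11 mitochondrial members were not called. Their log2 differences ran from -0.21 for Sars2 (adjusted p = 0.0817 in limma) to 0.41 for Yars2 (adjusted p = 0.0552). Among them were Mars2 at 0.25, Cars2 at 0.18, Wars2 at 0.11, Vars2 at 0.06 and Aars2 at 0.02.

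With the 3 RPE arrays that stood apart left out, which leaves 2 light-exposed and 3 control arrays, 8 members rose, beside 5.01% of all genes. They were Farsb, Hars, Mars1, Rars, Sars, Tars, Kars and Nars2. All 18 members called with the 8 arrays kept a positive difference, from 0.25 to 0.99, and the medians were 0.31 for cytosolic and 0.12 for mitochondrial members. Leaving out 1 array ended the calls of 2 members. Farsa was not called without RPE control 1, RPE control 3, RPE light 2 or RPE light 4 (adjusted p up to 0.0706). Tars2 was not called without RPE control 2, 3 or 4 or RPE light 2, 3 or 4 (adjusted p up to 0.0747).

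Iars, the isoleucyl enzyme, was measured by 2 transcript clusters, which differed. Its brighter cluster had 9.69, 9.51, 9.55 and 9.47 in light-exposed RPE, against 9.58, 9.46, 9.23 and 9.37 in control RPE, with overlapping groups (log2 0.15, adjusted p = 0.315 in limma). The dimmer cluster had 9.23, 9.16, 9.23 and 9.05 in light-exposed RPE, against 8.90, 8.88, 8.86 and 8.79 in control RPE, without overlap (log2 0.31, adjusted p = 0.00754 in limma). The call of Iars in the RPE thus depends on the cluster, and the dimmer one was tried after its values could be seen.

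The comparison of light-exposed with control NSR asked the same of the retina. There 5 of 34 members rose, beside 8.87% of all genes, and Cars fell, beside 6.24% of all genes. The 5 were Tars, Rars, Hars, Kars and Gars, so that 3 of 16 cytosolic members rose and 1 fell, both genes used in both compartments rose, and 0 of 16 mitochondrial members were called in either direction by limma. At an unadjusted p under 0.05 in limma 3 mitochondrial members were higher in the NSR, Ears2, Iars2 and Yars2, and 0 were lower. The share of all genes was not counted at that threshold. The 16 mitochondrial log2 differences ran from -0.27 for Pars2 to 0.26 for Yars2. The median log2 change was 0.09 for cytosolic members and 0.01 for mitochondrial members, beside -0.02 for all genes. In control NSR the median of member means was 8.95 for cytosolic and 7.08 for mitochondrial members, and the part of signal level was not tested. The light-exposed arrays all lay above the control arrays in 5 members and 10.7% of all genes, and all below in 1 member and 9.97% of all genes.

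Tars had 9.45, 9.56, 9.40 and 9.46 in light-exposed NSR, against 8.60, 8.97, 8.88 and 8.78 in control NSR, and rose 1.58-fold (log2 0.66, SE 0.08, adjusted p = 0.000163 in limma). Rars had 11.00, 11.09, 11.17 and 10.93 in light-exposed NSR, against 10.56, 10.64, 10.53 and 10.52 in control NSR, and rose 1.40-fold (log2 0.48, SE 0.07, adjusted p = 0.000524 in limma). Neither gene's groups overlapped. Kars had 8.84, 8.89, 9.09 and 8.92 in light-exposed NSR, against 8.59, 8.61, 8.59 and 8.63 in control NSR, and rose 1.26-fold (log2 0.33, SE 0.07, adjusted p = 0.00558 in limma). Hars had 9.12, 9.15, 9.36 and 9.09 in light-exposed NSR, against 8.51, 9.03, 8.72 and 8.94 in control NSR, and rose 1.30-fold (log2 0.38, SE 0.11, adjusted p = 0.0374 in limma). For Kars and Hars too the light-exposed arrays all lay above the control arrays. Gars rose 1.21-fold (adjusted p = 0.0286).

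Cars, the cysteinyl enzyme, went the other way. It had 8.13, 8.17, 8.22 and 8.07 in light-exposed NSR, against 8.23, 8.62, 8.68 and 8.46 in control NSR, and fell, being 1.27-fold lower (log2 -0.35, SE 0.09, adjusted p = 0.0261 in limma). Iars and Mars1 had log2 differences of -0.26 and -0.20 and were not called. The dimmer cluster of Iars had -0.27 and was not called either (adjusted p = 0.052 in limma).

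The NSR calls of Hars, Gars and Cars depended on single arrays, while those of Tars, Rars and Kars held under all 16 alternatives run. NSR control 1 was the lowest of the 4 control NSR arrays for 12 of the 16 cytosolic members, and NSR light 4 the lowest of the 4 light-exposed arrays for 13 of them. Hars was not called without NSR control 1 or 3 or NSR light 1, 2 or 3 (adjusted p up to 0.101), nor Gars without the same arrays (adjusted p up to 0.0780). Cars was not called without NSR control 2 or 3 or NSR light 1, 2 or 4 (adjusted p up to 0.0752). Between 3 and 6 members rose when 1 array was left out, with 3 each without NSR control 1, NSR control 3 or NSR light 2, and 0 to 2 fell. After quantile normalization 5 rose and 3 fell, and with each array centred on its median 5 rose and 2 fell. Rod and cone markers were lower in light-exposed NSR: 8 of 8 and 7 of 7 fell, with medians of 11.52 to 11.82 in light-exposed and 12.14 to 12.22 in control NSR for rods, and 8.61 to 8.93 in light-exposed and 10.00 to 10.17 in control NSR for cones. Of 6 Muller glia markers 3 fell and Vim rose, with medians of 8.65 to 8.74 in light-exposed and 8.88 to 8.95 in control NSR. Of 10 RPE markers 4 fell, and of 8 microglia and macrophage markers Tyrobp and C1qb rose. Their part in the synthetase values was not tested.

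**Figure D3:**
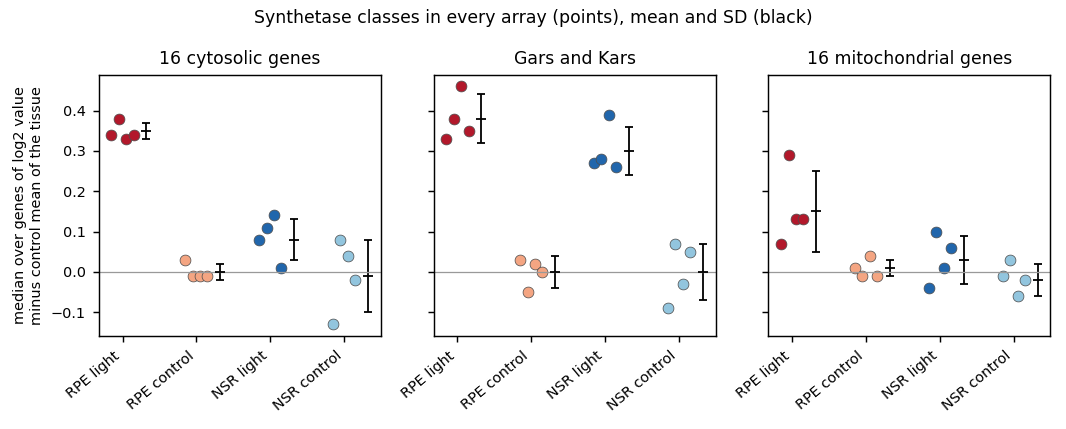
For each array, the median over the 16 cytosolic genes, over Gars and Kars, and over the 16 mitochondrial genes of the log2 value minus the control mean of the same tissue, with mean and SD (n = 4 mice per group). The light-exposed RPE arrays lie at 0.33 to 0.38 for cytosolic genes and at 0.07 to 0.29 for mitochondrial genes.

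Array by array, the median difference of the cytosolic members from the control mean was 0.34, 0.38, 0.33 and 0.34 in light-exposed RPE, against 0.03, -0.01, -0.01 and -0.01 in control RPE. For mitochondrial members it was 0.07, 0.29, 0.13 and 0.13 in light-exposed RPE, against 0.01, -0.01, 0.04 and -0.01 in control RPE. In both classes all 4 light-exposed RPE arrays lay above all 4 control arrays, and RPE light 2, the array with the corneal and ciliary markers, had the 0.29. In the NSR the cytosolic medians were 0.08, 0.11, 0.14 and 0.01 after light, against -0.13, 0.08, 0.04 and -0.02 in control NSR, and the groups overlapped.

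For 14 pairs of a cytosolic and a mitochondrial gene for the same amino acid, the changes can be set side by side. In the RPE both genes rose in 3 pairs (arginine, leucine and threonine), the cytosolic gene alone in 6, the mitochondrial gene alone in 1 (asparagine), and neither in 4. Fars2 stands in 2 of the pairs, with Farsa and with Farsb. Without the 3 RPE arrays that stood apart both genes rose in 0 pairs, the cytosolic gene alone in 6, the mitochondrial gene alone in 1 and neither in 7. Eprs, which serves glutamate and proline, is in none of the 14 pairs. In the RPE Eprs and the mitochondrial glutamyl Ears2 both rose, while the mitochondrial prolyl Pars2 was not called (log2 0.11). Without the 3 RPE arrays neither Eprs nor Ears2 was called (adjusted p = 0.0603 and 0.113 in limma). Nars, the brightest member, had a log2 difference of 0.18 in the RPE (adjusted p = 0.0580), while its mitochondrial counterpart Nars2 rose by 0.82. The reverse held for histidine, where Hars rose by 0.48 and Hars2, its neighbour in the GRCm38.p6 assembly, had -0.10. Within the multisynthetase complex 6 of 7 members rose in the RPE, with Iars not called, and 2 of 7 in the NSR. Among all genes 9.08% rose in the RPE and 8.87% in the NSR. Dars, another member of the complex, is not among the 7. Of the cytosolic and shared members outside it 7 of 11 rose in the RPE, and in the NSR 3 of 11 rose and 1 fell. Without the 3 RPE arrays 3 of 7 complex members (Rars, Mars1 and Kars) and 4 of 11 outside it rose in the RPE. Beside them 5.01% of all genes rose.

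The difference between the 2 light responses was tested as an interaction over all 16 arrays. Of 34 members 9 had a higher change in the RPE than in the NSR, beside 5.16% of all genes, and 0 had a lower one in limma, beside 8.05% of all genes. At an unadjusted p under 0.05 the counts were 12 and 0, and the share of all genes was not counted at that threshold. The 9 were Mars1, Nars2, Cars, Iars, Sars, Farsb, Rars2, Rars and Eprs, of which 7 are cytosolic and 2 mitochondrial.

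Mars1 had the largest difference: its log2 change was 0.50 in the RPE and -0.20 in the NSR, where it had 8.21, 8.35, 8.32 and 8.12 in light-exposed, against 8.33, 8.56, 8.51 and 8.41 in control arrays. The changes differed by 0.70 (SE 0.10, limma adjusted p = 0.000159). Nars2 changed by 0.82 in the RPE and by 0.14 in the NSR, a difference of 0.69 (SE 0.16, adjusted p = 0.00719 in limma). Cars changed by 0.10 in the RPE and by -0.35 in the NSR, a difference of 0.44 (SE 0.12, adjusted p = 0.0230 in limma). Tars, Hars, Gars and Kars, called in both tissues, had differences between -0.08 and 0.14 that were not called. For Tars the 95% interval of the difference ran from -0.33 to 0.17.

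The calls of Mars1, Nars2 and Sars held under all 24 alternatives run. Without NSR control 2 or without RPE light 3 the count was 5, and without the 3 RPE arrays that stood apart it was 4. Without those 3 arrays Eprs, Farsb, Iars, Rars and Rars2 were not called (adjusted p = 0.118, 0.0535, 0.119, 0.0663 and 0.108 in limma), and for Eprs and Farsb no other alternative ended the call. The calls of Cars, Iars, Rars and Rars2 were lost when single arrays were left out. Cars was not called without NSR control 2 or 3, RPE control 1 or RPE light 3 (adjusted p up to 0.0516). Iars was not called without NSR control 2, 3 or 4, NSR light 2, RPE control 3 or 4 or RPE light 1 or 3 (adjusted p up to 0.0771). The dimmer cluster of Iars, added after seeing the data, had a difference of 0.58 (adjusted p = 0.00119 in limma). Rars was lost without NSR control 2, NSR light 1 or 4, RPE control 2 or 3 or RPE light 3 (adjusted p up to 0.0655). Rars2 was lost without NSR control 2 or 3, NSR light 2 or 4, RPE control 4 or RPE light 2 or 3 (adjusted p up to 0.0596).

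Promoters were read for the members because several moved together. Windows from 250 bases before to 50 bases after a listed start, on GRCm38.p6, were held for 25 of the 34 members. The listed start is not the RefSeq gene start for every member, as for Yars and Eprs. No window was held for Rars, Hars, Cars, Lars, Nars, Vars and Wars or for the mitochondrial Hars2 and Pars2, so that these were not searched. The core of the composite element bound by ATF4 with C/EBP factors was searched as TGATGNAA on both strands. It stood in 3 of 9 cytosolic promoters (Iars, Tars and Yars), in that of Gars of the 2 shared genes, and in 0 of 14 mitochondrial ones. It stood in 3.97% of all 32851 windows and in 3.60% of those of protein-coding genes. The 4 promoters that hold it are shown from 100 bases before to 30 bases after the listed start, 5' to 3' on the gene's strand, with the match in capitals:

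Tars, chr15:11399629-11399758, minus strand: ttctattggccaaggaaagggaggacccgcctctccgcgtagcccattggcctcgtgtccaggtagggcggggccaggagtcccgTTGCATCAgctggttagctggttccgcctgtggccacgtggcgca
Gars, chr6:55037901-55038030, plus strand: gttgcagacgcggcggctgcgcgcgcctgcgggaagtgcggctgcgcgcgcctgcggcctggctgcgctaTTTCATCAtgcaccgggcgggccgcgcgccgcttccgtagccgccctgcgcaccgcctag
Iars, chr13:49682030-49682159, plus strand: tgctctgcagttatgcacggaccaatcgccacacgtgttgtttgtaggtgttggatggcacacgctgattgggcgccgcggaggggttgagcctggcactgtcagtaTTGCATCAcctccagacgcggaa
Yars, chr4:129189803-129189932, plus strand: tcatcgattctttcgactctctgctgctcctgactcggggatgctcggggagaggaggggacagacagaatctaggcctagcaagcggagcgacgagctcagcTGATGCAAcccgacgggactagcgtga

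The matches of Tars and Gars begin 15 and 30 bases before the listed start, and those of Iars and Yars 7 and 3 bases after it. All of the Yars stretch shown lies after that gene's RefSeq start, 129189734 on chromosome 4. Of these 4 genes Tars and Gars rose in both tissues, while Yars was called in neither and Iars in neither by its brighter cluster. The E-box CACGTG, a sequence that Myc binds, was in the promoters of Iars, Tars, Farsb and Ears2, and in 7.15% of all windows. The motif of interferon-stimulated response elements (TTTC, any 2 bases, TTTC) was in that of Qars, and in 3.44% of all windows. None of the 25 members had the interferon motif together with either other motif in these windows. Wars, which had no window, was not searched for it. A match describes the letters of these windows and nothing of binding.

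The comparison of RPE with NSR asked how the dissected tissues differ in synthetase mRNA. In light-exposed mice 14 of 34 members were higher and 7 lower in RPE, beside 34.4% and 23.6% of all genes. Of cytosolic members 7 were higher and 5 lower, and of mitochondrial members 6 were higher and 1 lower. After quantile normalization the split over all members was 12 higher and 11 lower. Without the 3 RPE arrays that stood apart the calls of Farsa, Lars2, Mars1 and Wars were lost. In control mice 8 members were higher and 16 lower in RPE, beside 30.8% higher and 24.2% lower among all genes. Of cytosolic members 4 were higher and 9 lower, and of mitochondrial members 3 were higher and 6 lower. Without the 3 RPE arrays only the call of Wars was lost in control mice. Kars, called 1.24-fold higher in RPE of light-exposed mice and 1.13-fold higher in RPE of control mice, had a log2 difference of -0.03 in control mice after quantile normalization. The tissue comparisons share arrays with the light comparisons, so that they are no separate evidence of the light response.

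Fars2, the mitochondrial phenylalanyl enzyme, had the largest log2 difference in favour of RPE in both states. It had 8.63, 8.70, 8.57 and 8.75 in light-exposed RPE, against 7.59, 7.67, 7.79 and 7.79 in light-exposed NSR (log2 0.95, SE 0.08, adjusted p = 1.15e-08 in limma). It had 8.65, 8.48, 8.83 and 8.69 in control RPE, against 7.75, 7.69, 7.86 and 7.56 in control NSR, a 1.93-fold difference (log2 0.95, SE 0.08, adjusted p = 1.11e-08 in limma). The tissues did not overlap in either state, and light did not move Fars2 past the test in either tissue, with log2 differences of -0.00 in the RPE and -0.01 in the NSR.

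Iars2, the mitochondrial isoleucyl enzyme, had 8.26, 8.26, 8.30 and 8.12 in control RPE, against 7.47, 7.59, 7.44 and 7.48 in control NSR, and was 1.67-fold higher in RPE. Hars was 1.57-fold higher in control RPE (log2 0.65, SE 0.10), where Hars2 was lower (log2 -0.45, SE 0.07, adjusted p = 2.28e-05 in limma). Farsb had 10.39, 10.31, 10.32 and 10.26 in light-exposed RPE, against 9.52, 9.53, 9.56 and 9.43 in light-exposed NSR (log2 0.81, SE 0.06, adjusted p = 1.76e-09 in limma). It was 1.75-fold higher in RPE of light-exposed mice and 1.37-fold higher in RPE of control mice. Over the 16 alternatives run its log2 difference ran from 0.65 to 0.84 in light-exposed and from 0.21 to 0.49 in control mice. In control mice that of Hars ran from 0.42 to 0.73 and that of Gars from -0.86 to -0.61. These calls held under all 16.

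Among the members lower in RPE, Mars1 averaged 8.04 ± 0.09 in light-exposed RPE and 8.25 ± 0.11 in light-exposed NSR (SD, n = 4 mice each), and the arrays overlapped (log2 -0.22, adjusted p = 0.0174 in limma). That call was lost without NSR light 2, without RPE light 1 and without the 3 RPE arrays that stood apart (adjusted p up to 0.147). In control mice Mars1 averaged 7.53 ± 0.09 in RPE and 8.45 ± 0.10 in NSR (log2 -0.92, SE 0.07, adjusted p = 4.48e-09 in limma). Cars averaged 7.58 ± 0.10 in control RPE and 8.50 ± 0.20 in control NSR (log2 -0.91, SE 0.09, adjusted p = 5.06e-08 in limma). Gars had 9.86, 9.81, 9.95 and 9.88 in light-exposed RPE, against 10.54, 10.51, 10.53 and 10.45 in light-exposed NSR. It was lower in RPE in both states, with log2 differences of -0.63 in light-exposed and -0.65 in control mice, and Tars likewise, with -0.51 and -0.43. Hars2 had -0.48 in light-exposed mice.

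**Figure D4:**
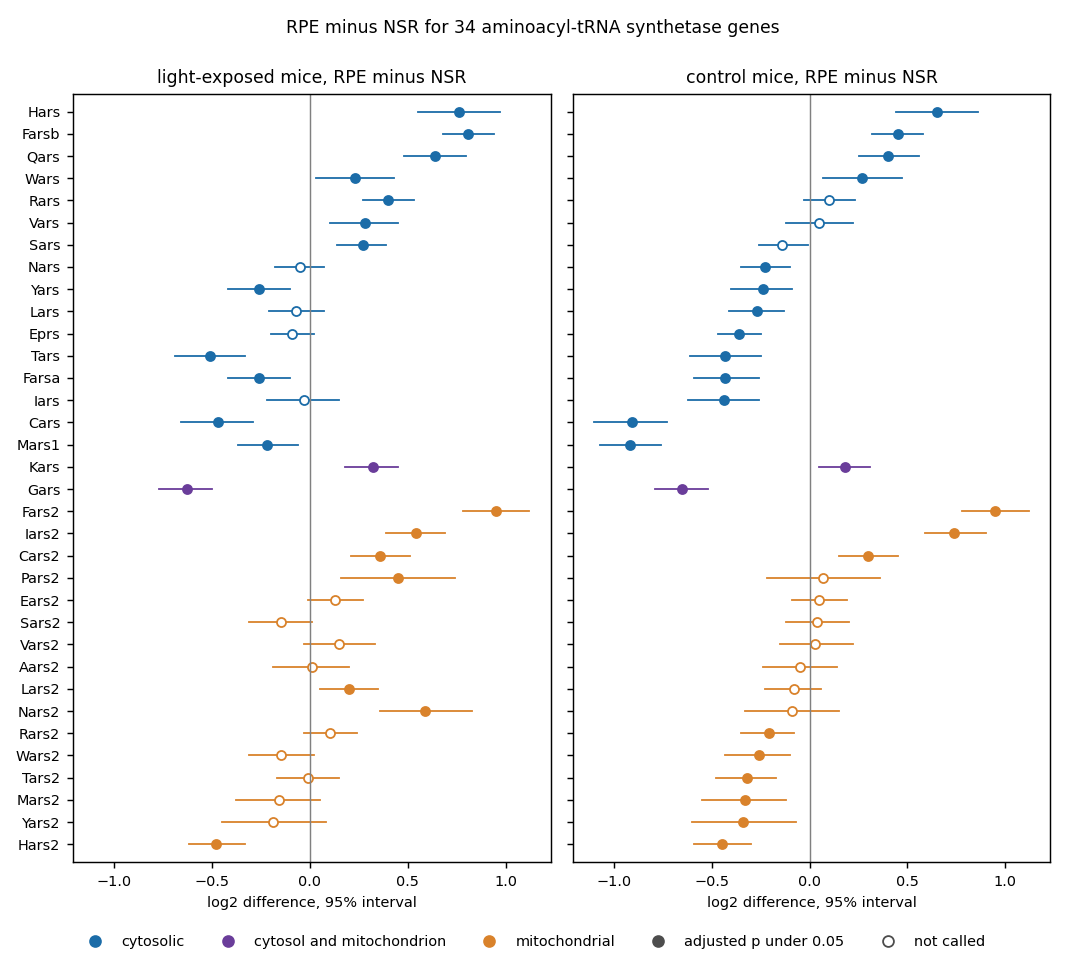
The log2 difference between RPE and NSR of each of the 34 genes, with its 95% interval, in light-exposed mice (left) and control mice (right); filled points passed an adjusted p under 0.05 in limma with 4 mice per group. Fars2 lies at 0.95 in both panels, and Mars1 at -0.22 in light-exposed and -0.92 in control mice.

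Genes of the same pathways were read from lists chosen with earlier results known. Among all genes 9.08% rose and 8.53% fell in the RPE, and 8.87% rose and 6.24% fell in the NSR. All 3 scaffold genes of the multisynthetase complex rose in the RPE. Eef1e1 stood at 9.20, 9.14, 9.42 and 8.84 in light-exposed RPE, against 8.15, 8.59, 8.29 and 8.23 in control RPE, and rose 1.78-fold (log2 0.83, SE 0.13, adjusted p = 0.00162 in limma). Aimp1 rose 1.46-fold and Aimp2 1.42-fold, and no scaffold gene's groups overlapped in the RPE. In the NSR Aimp2 alone of the 3 was called, 1.27-fold higher. That NSR call was lost after quantile normalization, at a log2 difference of 0.26. Of 13 other genes of tRNA charging and modification 2 rose in the RPE, Prorsd1 and Aarsd1, and in the NSR Prorsd1 rose and Pstk fell. These NSR counts lie near the shares of all genes. The call of Aarsd1 was lost without the 3 RPE arrays that stood apart, and that of Pstk without NSR control 2 or NSR light 1.

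Genes of the ATF4 programme were called in both directions. Of 24 measured genes 5 rose and 7 fell in the RPE, beside 9.08% and 8.53% of all genes. In the NSR 8 rose and 5 fell, beside 8.87% and 6.24%. Asns, the asparagine synthetase, stood at 6.47, 5.57, 6.13 and 6.20 in light-exposed RPE, against 5.18, 5.23, 5.31 and 5.06 in control RPE, and rose 1.86-fold, and it rose 1.47-fold in the NSR. Its control RPE values lie under the level that bounds the dimmest 25% of genes, whose height above background is unknown. Nupr1, a stress-induced chromatin protein, rose 1.74-fold in the RPE and 6.18-fold in the NSR. Atf3, a stress-induced transcription factor, rose 3.61-fold in the NSR and had a log2 difference of -0.26 in the RPE. Cth, an enzyme of cysteine synthesis, fell in both tissues, with log2 differences of -0.88 in the RPE and -0.42 in the NSR, as did Vldlr, a lipoprotein receptor, with -0.62 in the RPE and -0.69 in the NSR. Atf4 mRNA itself, named for its role and not by size, rose 1.32-fold in the NSR and had a log2 difference of -0.12 in the RPE (adjusted p = 0.425 in limma). In the interaction 7 of the 24 genes had a lower change in the RPE than in the NSR, beside 8.05% of all genes.

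Of 15 amino acid transporter genes 4 rose and 2 fell in the RPE, beside 9.08% and 8.53% of all genes. In the NSR 3 rose and 1 fell, beside 8.87% and 6.24%. Slc7a5, which carries large neutral amino acids, stood at 10.95, 11.07, 10.76 and 11.12 in light-exposed RPE, against 10.25, 10.14, 10.41 and 10.23 in control RPE, and rose 1.65-fold. In the NSR it stood at 8.45, 8.58, 8.60 and 8.25 after light, against 8.71, 9.07, 8.99 and 9.02 in control arrays, and fell, being 1.39-fold lower. The changes differed by 1.20 (adjusted p = 1.59e-05 in limma). In the RPE Slc1a5, a glutamine carrier, rose 1.35-fold and Slc6a9, a glycine carrier, fell, being 1.46-fold lower. The call of Slc1a5 was lost without RPE control 1 and without the 3 RPE arrays that stood apart. In the NSR Slc7a11, the cystine carrier, rose 3.60-fold and Slc36a4 rose 1.38-fold.

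Of 6 cytosolic elongation and eIF5A genes 2 rose in the RPE and 3 in the NSR. For this list and those that follow, 9.08% of all genes rose in the RPE and 8.87% in the NSR. Eef1b2, an exchange factor of elongation factor 1, rose 1.29-fold in the RPE and 1.70-fold in the NSR. Eif5a rose 1.38-fold in the RPE, and in the NSR Eef1d, another exchange factor subunit, rose 1.29-fold and Eef1a1, the tRNA-delivering factor itself, 1.17-fold. The call of Eef1a1 was lost without NSR control 1, 3 or 4 or NSR light 1, 2 or 3. Of 10 mitochondrial translation factors 3 rose in the RPE, Mtrf1 1.47-fold, Mrrf, the ribosome recycling factor, 1.43-fold and Gfm1 1.26-fold, and 2 rose in the NSR, Mrrf 1.55-fold and Mtrf1l 1.30-fold. Gfm1 was not called without the 3 RPE arrays that stood apart, nor Mtrf1l without NSR control 1 or 3 or NSR light 1 or 2. Of 10 genes of Myc and the nucleolus 7 rose in the RPE and 6 in the NSR. Rrs1 and Nop58, of ribosome assembly, rose 2.01-fold each in the RPE, and Fbl, the nucleolar fibrillarin, rose 1.86-fold in the RPE and 1.59-fold in the NSR. Myc itself rose in the NSR, with a measured ratio of 6.73, and had a log2 difference of -0.01 in the RPE, and Ddx21, a nucleolar helicase, rose 1.62-fold in the NSR. Myc averaged 5.15 in control NSR, in the range of the dimmest 25% of genes, where height above background is unknown.

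Of 16 interferon response genes 11 rose in the RPE and 16 in the NSR. In the interaction 14 had a lower change in the RPE, beside 8.05% of all genes. Gbp3, a guanylate-binding protein, rose 3.64-fold, the chemokine Cxcl10 2.87-fold and Ifit1 2.21-fold in the RPE, and Irgm1, Mx2 and Rtp4 rose in the NSR, with measured ratios of 11.5, 10.2 and 8.25. Irgm1 and Mx2 averaged 5.22 and 5.11 in control NSR, also in the range of the dimmest 25% of genes, where height above background is unknown. Wars, known as interferon-induced, had 8.76, 8.62, 8.65 and 8.46 in light-exposed RPE, against 8.47, 8.54, 8.44 and 8.35 in control RPE. In the NSR it had 8.41, 8.43, 8.59 and 8.12 after light, against 8.04, 8.19, 8.12 and 8.36 in control arrays. Its groups overlapped in both tissues and it was called in neither (adjusted p = 0.190 in the RPE and 0.207 in the NSR, limma). Of the 16 alternatives run for the NSR, only the one without NSR light 4 called it, as higher (adjusted p = 0.0481 in limma).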

How the data were processed

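Gene expression was measured on 16 Affymetrix Mouse Gene 1.0 ST arrays, 1 for the NSR and 1 for the RPE of each of 8 mice, from cDNA amplified with the Ovation Pico WTA System per the labels' protocols. The deposited table holds log2 values per transcript cluster, which the submitters' processing notes credit to RMA and Partek 6.6; the authors made them before depositing. As a method RMA subtracts background, equalizes the arrays' distributions and summarises probes, and it can compress differences of dim genes. The deposited array medians over all clusters still differed by tissue. They were 6.38 to 6.43 in the RPE arrays and 6.52 to 6.57 in the NSR arrays. Signal over background is unknown here, since no detection values were used. Replicates are separate mice, and 0 of 120 array pairs were identical.

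Of 35556 clusters 21789 carry 1 gene symbol, 1621 several and 12146 none. Each of 19938 genes was given its brightest single-symbol cluster by the mean over 16 arrays, and 999 genes had over 1. All 34 members were matched by gene ID to the RefSeq table of GRCm38.p6. Tests used limma 3.58.1 (lmFit and eBayes) in R 4.3.3, with Benjamini-Hochberg adjustment over all genes and calls at an adjusted p under 0.05. Light was fitted within each tissue, and the difference of responses and the tissue contrasts over 16 arrays with 4 group means. The fit was tested on simulated data.

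Mouse identifiers in the labels pair the NSR and RPE of an animal. Deviations from the group means of such pairs correlated at -0.011 to 0.053 over 8 mice, and those of arrays that share only a number at -0.017 to 0.066.

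Members and lists were chosen with earlier results of these data known. Values in every array were given for the 4 cytosolic or shared and the 4 mitochondrial members with the largest called rise, and the 2 with the largest fall, per tissue. For the difference and each tissue contrast the 3 largest called members each way were named, and per list the 3 largest changes among called genes. Alternatives changed scaling, the filter on dim genes, variance prior, array weights, cluster choice, block and arrays left out. Promoter sequences are RefSeq's on GRCm38.p6, and protein sequences were not used here. Aars and Dars, with no single-symbol cluster, were left out.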

Additional observations from a re-analysis of the deposited data

Results flagged for a closer look

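In 6 of 136 groups of 4 arrays, each 1 member in 1 group, a single array lay far from the other 3 for its range, where chance gives about 1 in 20 such groups. Aars2 in RPE light 1 was the lowest of its group at 6.01 on the log2 scale. Eprs in RPE control 4 was the highest of its group at 9.94, and Rars2 in the same array was the lowest at 9.16. Iars in NSR light 2 was the lowest at 9.43. In NSR control 1 Iars was the lowest at 9.65 and Nars the lowest at 11.04.

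The light response differed between RPE and NSR in 9 members by the interaction test. The RPE change minus the NSR change was 0.70 for Mars1, 0.69 for Nars2, 0.44 for Cars, 0.41 for Iars, 0.40 for Sars, 0.36 for Farsb, 0.31 for Rars2, 0.30 for Rars and 0.27 for Eprs on the log2 scale.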

How the results depend on the processing

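In the NSR the count of members that fell, all of them cytosolic, was 1 as reported, 2 after centring, with the dim filter, with the trended robust prior, with array weights and with the mean of clusters, and 3 after quantile normalization. Counting Gars and Kars as cytosolic gave 5 cytosolic rises in place of 3. Of mitochondrial members 1 in place of 0 rose with the dim filter and with all 16 arrays in the fit. In the RPE the set without the 3 arrays that stood apart gave 8 rises in place of 18, 6 cytosolic in place of 11 and 1 mitochondrial in place of 5, with a cytosolic median of 0.31 in place of 0.35. It left 5 arrays. Quantile normalization gave 1 member that fell in place of 0, a mitochondrial one. Members with a higher change in the RPE numbered 4 in place of 9 without the 3 arrays, and members lower in RPE of light-exposed mice 11 in place of 7 after quantile normalization. The cause of the last 2 shifts was not tested. No called value among the named genes turned its sign. Kars between the tissues in control mice, outside that rule, stood at -0.03 after quantile normalization and was not called. The dimmer cluster of Iars, added after seeing the data, was called in the RPE at 0.31.

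Leaving out 1 array gave 3 to 6 rises and 0 to 2 falls in the NSR, with 2 to 4 cytosolic rises, 0 to 2 cytosolic falls and 0 to 1 mitochondrial ones each way. The NSR medians were 0.07 to 0.11 for cytosolic and 0.00 to 0.04 for mitochondrial members. In the RPE it gave 16 to 18 rises and 0 to 1 falls, with 10 to 11 cytosolic rises, no cytosolic fall, 4 to 5 mitochondrial rises and 0 to 1 falls. The RPE medians were 0.32 to 0.37 and 0.13 to 0.18. The difference gave 5 to 10 higher and 0 lower. RPE against NSR gave 12 to 14 higher and 6 to 8 lower in light-exposed mice, and 7 to 8 higher and 15 to 17 lower in control mice. The replicate number as a block, a number shared by different mice, gave 4 rises and 1 fall in the NSR and 16 rises in the RPE. The mouse as a block, which pairs the tissues, left the counts at 9 for the difference, 14 and 7 for the tissues in light-exposed and 8 and 16 in control mice, and changed no call of a named member.

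Calls that held under every alternative numbered 3 of 6 in the NSR, 8 of 18 in the RPE, 3 of 9 for the difference, and 16 of 21 and 21 of 24 for the tissues in light-exposed and control mice. Over the named genes 1141 recomputed values stayed on their side of the threshold and 37 no longer passed it. Arrays give no depth, so the 4 mice per group limit the precision.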
